A study of Mus musculus with 84 samples.

Results

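The regulators of G protein signalling (RGS) described here are 10 genes, Rgs2, Rgs4, Rgs5, Rgs7, Rgs8, Rgs10, Rgs12, Rgs14, Rgs16 and Rgs17, chosen by symbol from the 43629 genes of the count table. All 10 were found and all 10 passed the filter on low counts. They were measured by bulk RNA sequencing of ventrolateral striatum, dissected by hand from 84 untreated adults. The mice belong to SOT and NOT, lines bred for 4 generations on ethanol preference together with withdrawal. Labels give 21 females and 23 males as High Drinker (44 animals), and 18 females and 22 males as Low Drinker (40 animals), without saying which line each group is. Each library came from 1 animal. The labels call the animals adult without an age, and they name neither founder strains nor litters.

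RGS proteins bind the active alpha subunit of a heterotrimeric G protein and speed its hydrolysis of GTP, which shortens signalling by the receptor upstream. In striatum the receptors concerned include those for dopamine, acetylcholine, opioids, adenosine and glutamate. The R4 subfamily (here Rgs2, Rgs4, Rgs5, Rgs8 and Rgs16) holds small proteins with little beyond the RGS domain. Members of the R7 subfamily (Rgs7) pair with the beta subunit Gnb5, the R12 subfamily (Rgs10, Rgs12, Rgs14) includes proteins with a second G protein binding motif, and the RZ subfamily (Rgs17) acts on Gi, Go and Gz.

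Promoters from 250 bases before to 50 bases after the start site were taken from RefSeq (build GRCm38.p6) for 9 of the 10 genes. The set printed holds the 3 genes whose levels ran together between animals (Rgs2, Rgs8 and Rgs10), the gene that ran opposite to them (Rgs7), the gene with the highest level (Rgs4) and the gene with the lowest (Rgs16). Capitals mark matches, on either strand, to a TATA box (TATAAA), a cyclic AMP response element core (TGACG), a GC box (GGGCGG) or an E-box (CACGTG).
Rgs2: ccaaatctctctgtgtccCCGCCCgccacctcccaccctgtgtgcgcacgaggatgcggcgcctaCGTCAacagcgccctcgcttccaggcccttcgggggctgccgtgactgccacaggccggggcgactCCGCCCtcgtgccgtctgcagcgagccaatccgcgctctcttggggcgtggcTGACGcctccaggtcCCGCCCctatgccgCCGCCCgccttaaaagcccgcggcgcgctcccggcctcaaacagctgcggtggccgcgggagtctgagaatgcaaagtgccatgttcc
Rgs8: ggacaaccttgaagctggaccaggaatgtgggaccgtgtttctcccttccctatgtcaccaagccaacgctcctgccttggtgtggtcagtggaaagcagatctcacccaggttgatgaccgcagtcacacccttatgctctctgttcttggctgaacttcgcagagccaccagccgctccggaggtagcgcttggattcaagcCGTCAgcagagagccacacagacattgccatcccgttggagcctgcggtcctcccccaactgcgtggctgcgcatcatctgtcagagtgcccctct
Rgs10: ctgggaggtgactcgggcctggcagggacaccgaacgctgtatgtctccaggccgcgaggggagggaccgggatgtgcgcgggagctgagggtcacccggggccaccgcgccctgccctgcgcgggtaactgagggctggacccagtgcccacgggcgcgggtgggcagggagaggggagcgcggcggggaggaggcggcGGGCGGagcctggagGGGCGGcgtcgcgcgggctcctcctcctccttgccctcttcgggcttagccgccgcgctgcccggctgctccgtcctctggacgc
Rgs7: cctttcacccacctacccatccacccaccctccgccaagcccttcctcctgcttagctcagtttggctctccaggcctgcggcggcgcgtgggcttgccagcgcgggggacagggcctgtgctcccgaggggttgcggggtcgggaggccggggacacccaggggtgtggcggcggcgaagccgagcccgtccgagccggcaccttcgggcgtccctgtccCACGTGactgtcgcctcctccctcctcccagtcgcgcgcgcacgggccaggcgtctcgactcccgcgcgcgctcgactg
Rgs4: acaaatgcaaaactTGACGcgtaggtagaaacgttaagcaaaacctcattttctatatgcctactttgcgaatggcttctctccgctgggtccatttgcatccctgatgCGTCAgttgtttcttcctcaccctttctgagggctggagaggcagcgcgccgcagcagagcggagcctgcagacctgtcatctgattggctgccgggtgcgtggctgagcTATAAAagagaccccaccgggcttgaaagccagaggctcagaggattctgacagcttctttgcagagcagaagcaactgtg
Rgs16: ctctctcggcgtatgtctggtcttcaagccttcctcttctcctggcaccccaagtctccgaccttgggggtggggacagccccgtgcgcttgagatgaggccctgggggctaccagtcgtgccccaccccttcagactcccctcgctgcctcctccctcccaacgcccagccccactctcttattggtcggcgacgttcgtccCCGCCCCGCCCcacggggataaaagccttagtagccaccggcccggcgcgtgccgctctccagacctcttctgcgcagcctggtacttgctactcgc
The Rgs2 sequence is chr1:144004100-144004399 (minus strand), Rgs8 is chr1:153652787-153653086 (plus strand) and Rgs10 is chr7:128418123-128418422 (minus strand). Rgs7 is chr1:175492496-175492795 (minus strand), Rgs4 is chr1:169747593-169747892 (minus strand) and Rgs16 is chr1:153740103-153740402 (plus strand). RefSeq lists 3 promoters for Rgs8, and the printed one starts 12 bases from the start of the gene in the count table. The RefSeq start of Rgs10 lies 586 bases from the start in the count table. The Rgs2 promoter holds 4 GC boxes and 2 response element cores, the Rgs8 promoter 1 such core and the Rgs10 promoter 2 GC boxes, so none of these motifs was in all 3. The Rgs7 promoter holds 1 E-box, the Rgs16 promoter 2 GC boxes that overlap each other, and the Rgs4 promoter 1 TATA box and 2 response element cores. Over the 32851 RefSeq promoters of this length the TATA box was in 13.6%, the response element core in 20.8%, the GC box in 35.7% and the E-box in 7.15%. Base composition also differed, with 76% G and C in the Rgs10 window, 73.3% in Rgs7, 70% in Rgs2, 66% in Rgs16, 58.3% in Rgs8 and 53% in Rgs4, against a median of 52.7% over all promoters.

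Of the 10 genes, 6 lie on chromosome 1 (mm10). Rgs2 lies at 143999338 to 144004161, Rgs8 at 153653025 to 153700323 and Rgs16 at 153740349 to 153745468. Farther along are Rgs5 at 169655501 to 169695813, Rgs4 at 169741477 to 169747642 and Rgs7 at 175059087 to 175492500. Rgs10 is on chromosome 7 (128373621 to 128418758), Rgs12 on chromosome 5 (34949445 to 35039644), Rgs14 on chromosome 13 (55369732 to 55384687) and Rgs17 on chromosome 10 (5825663 to 5922400). In the annotation an exon of Rgs8, Rgs12 and Rgs16 overlaps a gene on the other strand (Gm29529, Gm43791 and Gm28513), and since the kits named in the labels do not mark strand, those reads cannot be told apart.

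Libraries held 22190363 to 41300401 gene counts in High Drinker animals and 27561410 to 35941404 in Low Drinker animals. The titles name no set. Libraries were split into 3 sheet sets, inferred from where the numbers that end the titles restart. The sets hold 30, 11 and 3 High Drinker libraries against 18, 19 and 3 Low Drinker libraries, and set was a term in each main model. The labelled tissue was checked with 15 markers of medium spiny neurons, the main striatal cell type, all of them tested and 0 of them at a count of 0 in any library. Their summed level ran from 2173 to 21488 CPM in High Drinker and from 1857 to 18740 CPM in Low Drinker libraries. Between lines 0 of the 15 genes passed the threshold. CPM are counts scaled to the library's total over genes that passed the filter, adjusted by TMM, a normalization of edgeR. Cortical glutamatergic markers were present in every library too, summing to 175 to 2982 CPM in High Drinker mice and 444 to 3516 CPM in Low Drinker animals (0 of 10 past the threshold). The amount of striatal and cortical RNA thus varied widely among libraries of each line. In bulk tissue fewer cells of a type and less RNA per cell cannot be told apart. The library Low Drinker 8 had a median correlation with the other libraries more than 5 median absolute deviations below the rest.

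Per length of gene as given in the count table, Rgs4 was the most abundant of the 10 genes. It averaged 189.5 ± 57.3 RPKM (CPM scaled to that length, SD over 84 animals). It exceeded Rgs14, the next gene, in 84 of 84 libraries. Rgs14 averaged 36.03 ± 9.51 RPKM, Rgs2 29.3 ± 9.40 RPKM, Rgs10 20.2 ± 7.72 RPKM and Rgs8 20.04 ± 6.83 RPKM. Rgs5 averaged 16.1 ± 2.89 RPKM, Rgs7 12.8 ± 1.775 RPKM, Rgs17 11.7 ± 2.29 RPKM and Rgs12 8.96 ± 2.47 RPKM. Rgs16 was the lowest at 3.83 ± 2.47 RPKM and lay below Rgs12 in 82 of 84 libraries. The gap between means exceeded the sum of the SDs for 2 of the 9 neighbouring pairs in this order, Rgs4 over Rgs14 and Rgs12 over Rgs16. The closest pair was Rgs10 and Rgs8, where Rgs10 was the higher in 29 of 84 libraries.

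The first comparison asked whether the lines differ in RGS expression. None of the 10 genes passed the test between High Drinker and Low Drinker animals (0 of 10 at an adjusted p of 0.05 with edgeR's quasi-likelihood test, and 0 of 10 with DESeq2 or limma-voom), where 3.94% of the 17071 genes tested did. At an unadjusted p of 0.05, 2 of the 10 genes and 18% of all genes were past the threshold. The 10 log2 fold changes had a median of 0.004, with 5 positive, beside a median of 0.001 over all genes tested. The values below are in CPM.

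**Figure D1:**
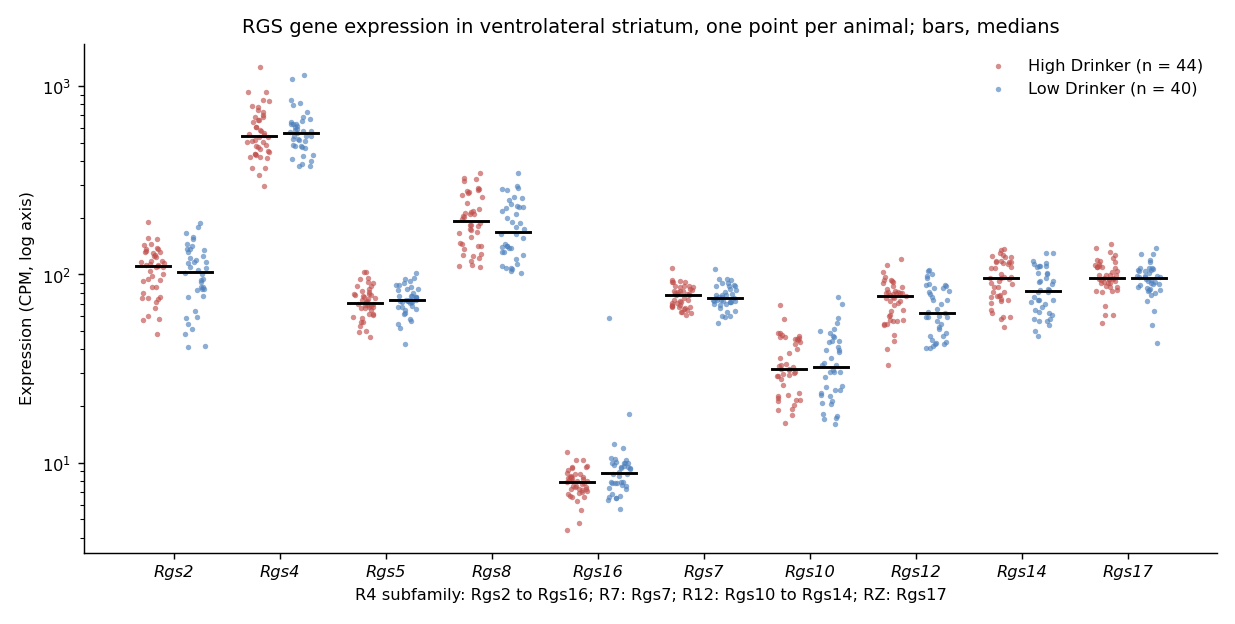
Expression of the 10 RGS genes in CPM on a log axis, with 1 point per animal (44 High Drinker animals in red on the left, 40 Low Drinker animals in blue on the right) and bars at the medians. The groups overlap for every gene, and the single Rgs16 value of 58.6 CPM belongs to a Low Drinker animal.

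In the R4 subfamily, Rgs2, which prefers Gq as its target, had a lowest, median and highest level of 48.4, 111.5 and 189.1 CPM in High Drinker animals and 40.99, 103.5 and 187.8 CPM in Low Drinker animals. Rgs4, an abundant forebrain RGS protein that acts on Gi, Go and Gq, ran at 294.4, 542.9 and 1261.6 CPM in High Drinker mice and 375.3, 565.8 and 1146.55 CPM in Low Drinker animals. Rgs8, which acts mainly on Gi and Go, ran at 109.8, 192.0 and 344.0 CPM in High Drinker mice and 101.9, 168.5 and 344.7 CPM in Low Drinker animals. For all 3 genes the ranges of the lines coincide almost fully, and their log2 fold changes were -0.02 ± 0.10, -0.05 ± 0.09 and 0.07 ± 0.10 (SE), with adjusted p of 0.951, 0.810 and 0.766. Rgs5, known as a marker of pericytes on small vessels, ran at 46.5, 71.0 and 103.2 CPM in High Drinker mice and 42.8, 72.9 and 102.3 CPM in Low Drinker animals (log2 fold change -0.065 ± 0.057, adjusted p = 0.60). Rgs7, the R7 member, varied least of the 10, at 61.1, 77.8 and 107.8 CPM in High Drinker mice and 55.5, 75.2 and 106.6 CPM in Low Drinker animals. Its log2 fold change was 0.03 ± 0.04 (adjusted p = 0.801).

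Among the R12 genes, Rgs14, a scaffold known from hippocampal area CA2, ran at 52.7, 95.3 and 136.1 CPM in High Drinker mice and 47.3, 81.7 and 130.1 CPM in Low Drinker animals. Of the 44 High Drinker libraries 28 exceeded the Low Drinker median, with a log2 fold change of 0.175 ± 0.085 (unadjusted p = 0.0415, adjusted p = 0.255). Rgs12, a large scaffold with several domains, ran at 33.2, 76.4 and 120.5 CPM in High Drinker mice and 40.6, 62.8 and 106.1 CPM in Low Drinker animals, with 31 of 44 High Drinker libraries above the Low Drinker median (log2 fold change 0.14 ± 0.09, adjusted p = 0.418). Rgs10, a small protein best known from microglia and also found in neurons, ran at 16.3, 31.5 and 69.2 CPM in High Drinker mice and 15.99, 32.1 and 75.6 CPM in Low Drinker animals (log2 fold change -0.12 ± 0.11, adjusted p = 0.629). The RZ member Rgs17 ran at 55.4, 95.7 and 145.0 CPM in High Drinker mice and 43.2, 95.8 and 137.9 CPM in Low Drinker animals (log2 fold change 0.04 ± 0.07, adjusted p = 0.829). The ranges of the lines overlap for all 4 genes.

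Rgs16, an R4 protein whose transcript is low in striatum, had the smallest p of the 10 between lines. It ran at 4.42, 7.94 and 11.4 CPM in High Drinker animals and 5.69, 8.84 and 58.6 CPM in Low Drinker animals, with 36 of 44 High Drinker libraries below the Low Drinker median. The log2 fold change was -0.24 ± 0.09 (unadjusted p = 0.0118, adjusted p = 0.138). The highest value came from a Low Drinker female of sheet set 3, animal 2, and the next, 18.2 CPM, from Low Drinker animal 3, a female of the same set. Without animal 2 the Low Drinker mean was 8.91 ± 2.20 CPM (SD, n = 39) in place of 10.2 ± 8.15 CPM (n = 40), and the log2 fold change was -0.15 ± 0.065 (adjusted p = 0.206). Within sheet set 1 the median was 7.68 CPM in High Drinker mice and 7.76 CPM in Low Drinker animals (log2 fold change -0.06 ± 0.08, adjusted p = 0.781). Within sheet set 2 it was 8.05 CPM in High Drinker mice and 9.33 CPM in Low Drinker animals (log2 fold change -0.22 ± 0.09, adjusted p = 0.567). Sheet set 3 held 3 libraries of each line, at 6.999, 8.38 and 9.51 CPM in High Drinker mice and 6.35, 18.2 and 58.6 CPM in Low Drinker animals. In a model without the set term Rgs16 passed the threshold (log2 fold change -0.35 ± 0.11, adjusted p = 0.0383), where 5.07% of all genes did.

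Low Drinker animal 2 was also the highest of the 84 libraries for 8 of 10 markers of thalamic neurons, a list written after this library had been seen. Prkcd was at 288 CPM there, against a median of 14.4 CPM and a maximum of 77.85 CPM in the other libraries. Tcf7l2 was at 82.4 CPM there, against a median of 4.34 CPM in the others. The 10 thalamic markers summed to 1038 CPM in animal 2 and 368 CPM in animal 3, beside a median of 143 CPM in High Drinker mice and 135 CPM in Low Drinker libraries. Gbx2 was the thalamic marker at 0 in some library, and 0 of the 10 markers passed the threshold between lines. Over all 84 libraries Rgs16 had Pearson's r = 0.384 with the mean z-score of these markers (permutation adjusted p = 0.0129) and Spearman's rho = -0.121 (permutation adjusted p = 0.379). Without the 2 libraries farthest from the median score r was -0.123, so the positive r rests on those libraries. With the thalamic score as a covariate the line difference of Rgs16 was -0.20 ± 0.08 (adjusted p = 0.160).

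Sex gave no member past the threshold (0 of 10 with edgeR, DESeq2 or limma-voom), where 0.0996% of all genes passed. At an unadjusted p of 0.05 in edgeR, 688 of the 17071 genes tested passed, and 1 of the 10 members did. The member with the smallest p was Rgs5, at 76.3 ± 13.9 CPM in High Drinker females and 69.1 ± 12.9 CPM in High Drinker males (SD). In Low Drinker animals it was at 75.6 ± 13.4 CPM in females and 72.8 ± 12.03 CPM in males. Its log2 fold change of females over males was 0.12 ± 0.06 (unadjusted p = 0.0371, adjusted p = 1). For the line by sex interaction 0 of 10 members passed with edgeR, DESeq2 or limma-voom, and 1 of 10 had an unadjusted p under 0.05. Over all genes 0% passed in edgeR, with 965 genes at an unadjusted p under 0.05, and 0 passed with DESeq2 and 0 with limma-voom. Rgs16 had the smallest interaction p of the members (-0.37 ± 0.18, unadjusted p = 0.0399, adjusted p = 0.784). It averaged 7.865 ± 1.48 CPM in High Drinker females against 12.01 ± 11.95 CPM in Low Drinker females, and 7.92 ± 1.28 CPM in High Drinker males against 8.63 ± 1.485 CPM in Low Drinker males. Both libraries with the highest Rgs16 are among the Low Drinker females.

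The series also set out to compare variance between the lines. Variability was tested with limma on each animal's absolute deviation from the median of its line and sex. None of the 10 genes differed after adjustment, where 0.0117% of all genes did. At an unadjusted p of 0.05, 694 of the 17071 genes tested passed, and 1 of the 10 members did. The smallest p of the members was again that of Rgs16 (-0.13 ± 0.07 on the log2 scale, unadjusted p = 0.0464, adjusted p = 0.979). The coefficient of variation over 84 animals was 64.5% for Rgs16, and 22.3% without Low Drinker animal 2. For this gene it was 17.3% in High Drinker animals and 80.2% in Low Drinker animals, animal 2 included. Without animal 2 Rgs16 was at 8.91 ± 2.20 CPM in Low Drinker animals, beside 7.89 ± 1.37 CPM in High Drinker animals (SD). The variability test was not rerun without animal 2. Among the other genes it was 38.2% for Rgs10, 34.1% for Rgs8 and 32.1% for Rgs2, but 17.9% for Rgs5 and 13.9% for Rgs7. The median over the 11701 genes above 5 CPM was 14.1%, and 9 of the 10 members lay above it.

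Much of that spread was shared between members. Correlations were computed over the 84 animals on log2 CPM with set, sex and line removed, for all 45 pairs. Of these, 24 pairs passed a permutation test after adjustment over the 45 (13 positive, 11 negative). The share of pairs passing among all genes is not given here, so the count shows nothing particular to RGS genes. Rgs2 and Rgs10 had Pearson's r = 0.862 and Spearman's rho = 0.882 (permutation p = 1e-05 each, the smallest that 100000 resamples can give, adjusted p = 3.75e-05 and 3.46e-05). Rgs8 had r = 0.858 with Rgs10 and 0.824 with Rgs2, at the same smallest p. Without the 2 libraries farthest from the median of the first gene the 3 values were 0.887, 0.844 and 0.837. The same pairs had r of 0.876, 0.874 and 0.841 in sheet set 1 and 0.860, 0.801 and 0.786 in sheet set 2. Rgs14 followed Rgs2 at r = 0.730 (adjusted p = 3.75e-05, permutation test), and Rgs12 followed Rgs14 at r = 0.596 (adjusted p = 3.75e-05, permutation test). High levels of Rgs2, Rgs8 and Rgs10 thus went together in the same animals, with Rgs12 and Rgs14 in looser company.

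Rgs7 ran opposite to this group. Its r was -0.743 with Rgs10, -0.707 with Rgs2 and -0.695 with Rgs8 (adjusted p = 3.75e-05 for each, permutation test). Rgs16 was negatively related to Rgs14 (r = -0.436), Rgs2 (r = -0.424), Rgs10 (r = -0.388) and Rgs8 (r = -0.338), with permutation adjusted p between 6.9e-05 and 0.0034. These relations varied in size by sheet set. With Rgs14 r was -0.450 in set 1 and -0.436 in set 2, with Rgs2 -0.583 and -0.208, with Rgs10 -0.663 and -0.055, and with Rgs8 -0.647 and 0.157. Of the 24 pairs, 21 had the same sign in both larger sets. The exceptions were Rgs8 with Rgs16, Rgs4 with Rgs8 (0.428 in set 1 and -0.123 in set 2) and Rgs4 with Rgs16 (-0.566 in set 1 and 0.270 in set 2). The Rgs2 and Rgs17 pair had r = 0.337 (adjusted p = 0.00502, permutation test) and rho = 0.250 (adjusted p = 0.0405, permutation test). Its r was 0.178 without the 2 farthest libraries, 0.337 in sheet set 1 and 0.367 in sheet set 2. Among the physical neighbours, Rgs4 and Rgs5, 45663 bases apart, had r = -0.094 (permutation adjusted p = 0.494), and Rgs8 and Rgs16, 40025 bases apart, were negatively related as given above.

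**Figure D2:**
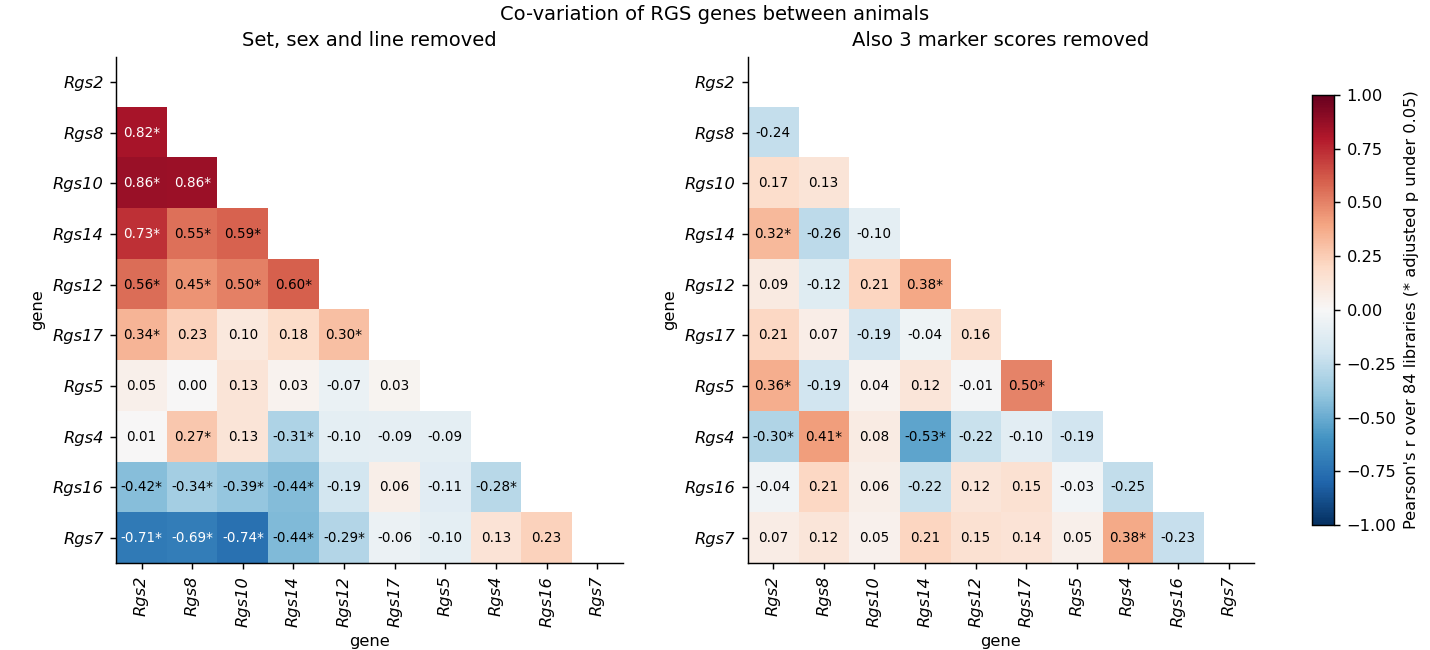
Pearson's r over 84 animals for each pair of RGS genes, with set, sex and line removed (left) and with 3 cell type marker scores removed as well (right). Colour and printed value give r, and an asterisk marks an adjusted p under 0.05. The block of Rgs2, Rgs8 and Rgs10 at the upper left of the left panel has r of 0.82 to 0.86, and in the right panel the same pairs lie between -0.24 and 0.17.

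The shared spread moved with the cell type markers. A medium spiny neuron score, the mean z-score of 15 markers that include no RGS gene, had r = 0.940 with Rgs2, 0.905 with Rgs8 and 0.890 with Rgs10 (permutation adjusted p = 3.49e-05 each, over 150 relations of 10 genes with 15 marker lists). The corresponding rho values were 0.927, 0.938 and 0.898 (permutation adjusted p = 3.41e-05 each). Other scores ran with these genes too, at r of 0.844, 0.770 and 0.840 for striatal interneurons and 0.710, 0.665 and 0.813 for a list of hippocampal CA2 and pallidal markers (permutation adjusted p = 3.49e-05 each). Without the 2 libraries farthest from the median medium spiny neuron score r was 0.934, 0.900 and 0.876. In High Drinker animals alone r was 0.932, 0.947 and 0.938, and in Low Drinker animals alone 0.942, 0.862 and 0.834. Rgs14 had r = 0.683 and Rgs12 r = 0.577 with this score, while Rgs7 had r = -0.762 and Rgs16 r = -0.459 (permutation adjusted p = 3.49e-05 each). For Rgs16 this was -0.696 in sheet set 1 and -0.191 in sheet set 2.

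The cortical score gave the mirror image. Its r was -0.891 with Rgs10, -0.826 with Rgs8 and -0.807 with Rgs2, against 0.789 with Rgs7 (permutation adjusted p = 3.49e-05 each). The microglia score had r = 0.596 with Rgs10, below the value for medium spiny neurons. Rgs5 moved with vessels, at r = 0.776 with the endothelial score (rho = 0.732, permutation adjusted p = 3.49e-05 for r and 3.41e-05 for rho, r = 0.733 without the 2 farthest libraries) and r = 0.396 with the mural score (permutation adjusted p = 0.000734). Rgs17 had r = -0.462 with the mural score (permutation adjusted p = 3.49e-05). Rgs4, the most abundant member, had r = 0.118 with the medium spiny neuron score (permutation adjusted p = 0.384), from 0.354 in sheet set 1 and -0.401 in sheet set 2.

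**Figure D3:**
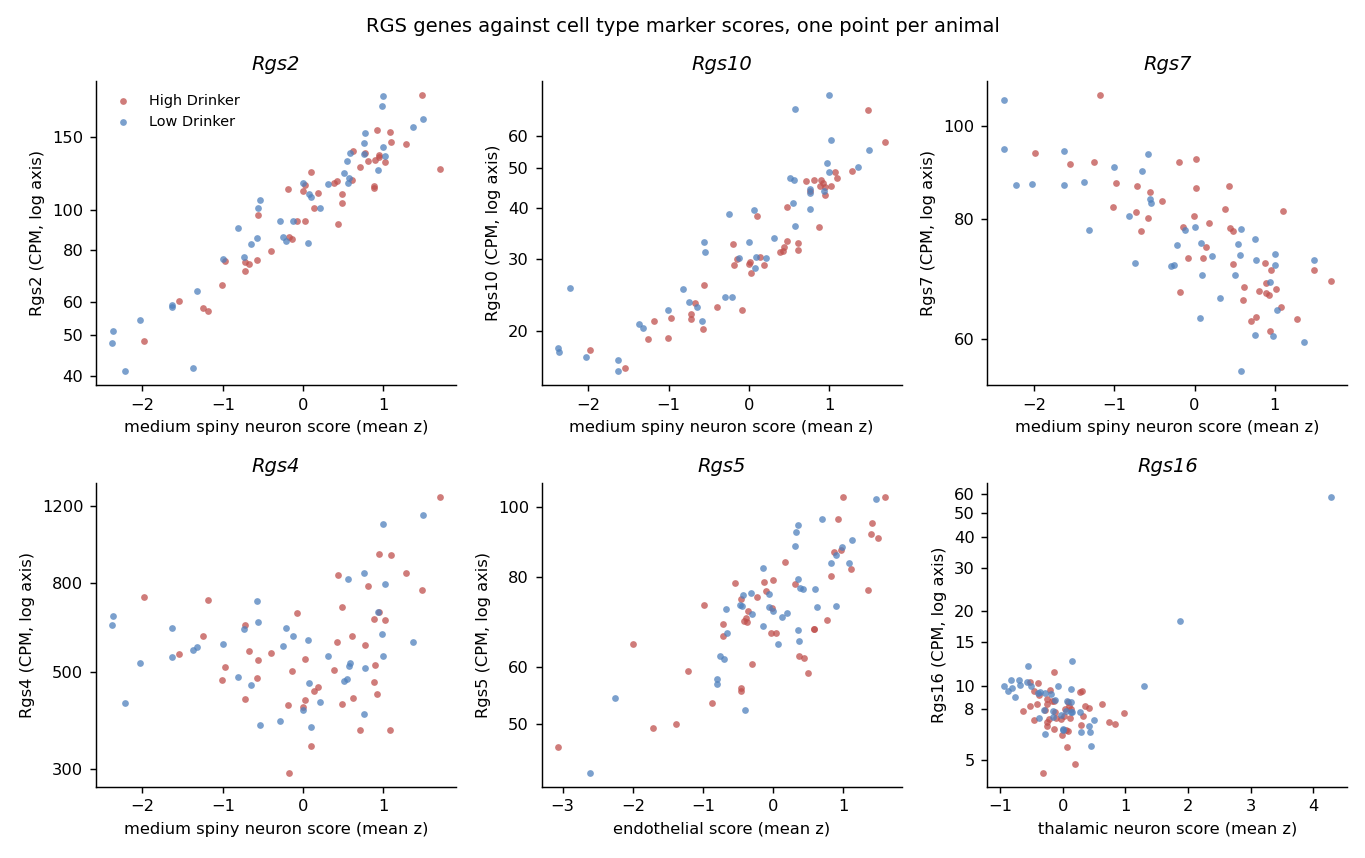
Expression in CPM on a log axis against the mean z-score of a marker list, with 1 point per animal (High Drinker in red, Low Drinker in blue). Rgs2 and Rgs10 climb and Rgs7 declines along the medium spiny neuron score, Rgs4 shows no such line, Rgs5 climbs with the endothelial score, and 2 Low Drinker libraries, at 18.2 and 58.6 CPM of Rgs16, lie at the far right of the thalamic score.

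When the medium spiny neuron, cortical and vascular scores were removed from the levels as well, 8 of the 45 pairs passed, 4 of them also among the 24. The r of Rgs2 with Rgs10 was then 0.175 and that of Rgs2 with Rgs8 was -0.238 (permutation adjusted p = 0.228 and 0.121). Pairs that passed included Rgs4 with Rgs14 (r = -0.530), Rgs5 with Rgs17 (r = 0.498), Rgs4 with Rgs8 (r = 0.415) and Rgs12 with Rgs14 (r = 0.384), with permutation adjusted p between 0.000225 and 0.00396. Rgs2 with Rgs5 (r = 0.364), Rgs4 with Rgs7 (r = 0.381), Rgs2 with Rgs14 (r = 0.324) and Rgs2 with Rgs4 (r = -0.301) made up the 8. None of these 8 was computed within sheet sets after the scores were removed. With the scores kept, r in sheet sets 1 and 2 was -0.041 and -0.695 for Rgs4 with Rgs14. It was 0.007 and 0.457 for Rgs4 with Rgs7, and 0.178 and -0.408 for Rgs2 with Rgs4. Rgs12 with Rgs14 was at 0.511 and 0.769, and Rgs2 with Rgs14 at 0.736 and 0.764. Rgs4 with Rgs8 was at 0.428 and -0.123, Rgs5 with Rgs17 at 0.108 and -0.168, and Rgs2 with Rgs5 at 0.141 and -0.072. Over all 84 libraries with the scores kept, r was 0.025 for Rgs5 with Rgs17 and 0.054 for Rgs2 with Rgs5.

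Rgs10 passed the line threshold in models that held cell type marker scores. Without scores its log2 fold change was -0.117 ± 0.108. The fits with scores gave smaller SEs, and whether the estimate itself shifted was not tested. With the medium spiny neuron score as a covariate the log2 fold change of Rgs10 was -0.205 ± 0.052 (adjusted p = 0.00828, edgeR), and it was the one member of 10 past the threshold, where 6.17% of all genes were. With the neuron, cortical and vascular scores together it was -0.19 ± 0.04 (adjusted p = 0.00263, 7.18% of all genes called). With 5 surrogate variables it was -0.12 ± 0.03 (adjusted p = 0.00602), and Rgs14 passed there too (0.15 ± 0.05, adjusted p = 0.0247), where 14.3% of all genes did. In the surrogate variable fit the size of the difference was that of the model without scores, and the SE was smaller. The medium spiny neuron covariate gave -0.23 ± 0.06 within sheet set 1 (adjusted p = 0.0433) and -0.075 ± 0.095 within sheet set 2 (adjusted p = 0.998). It gave -0.20 ± 0.075 in females (adjusted p = 0.355) and -0.20 ± 0.075 in males (adjusted p = 0.194). Without the 5 libraries with the lowest correlations it was -0.155 ± 0.043 (adjusted p = 0.0244). For Rgs14 the same covariate gave 0.217 ± 0.066 within sheet set 1 and -0.006 ± 0.125 within sheet set 2 (adjusted p = 0.0829 and 0.999, edgeR). The surrogate variable fit was not run within sets.

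**Figure D4:**
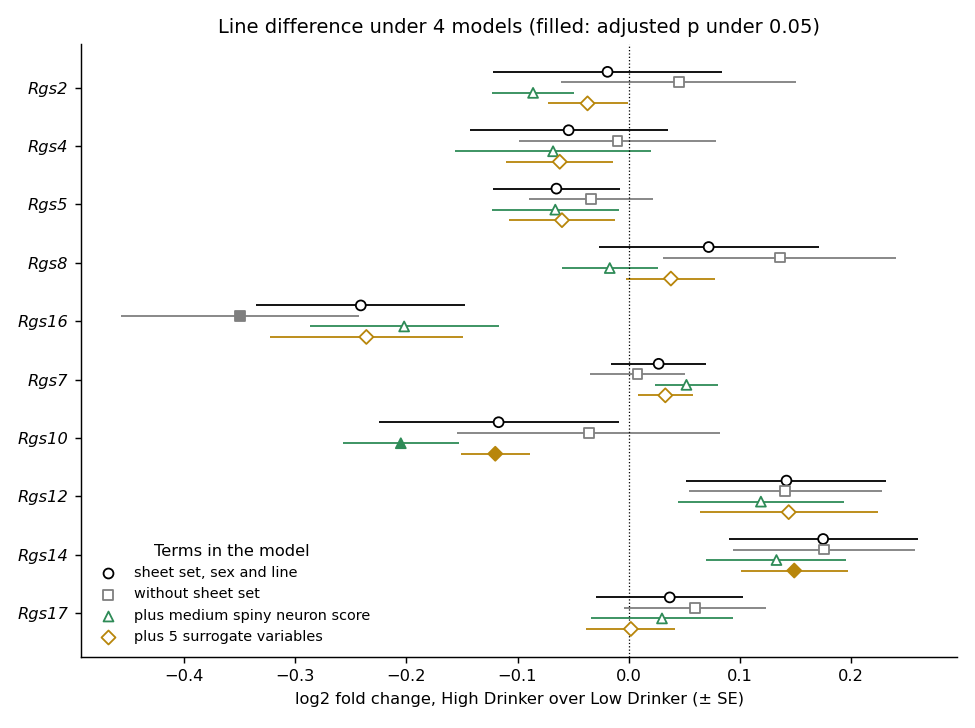
Log2 fold change of High Drinker over Low Drinker animals for each RGS gene with its SE, under 4 models, where filled symbols have an adjusted p under 0.05. All symbols are open in the model with sheet set, sex and line, Rgs16 is filled without the set term at -0.35, Rgs10 with the medium spiny neuron score at -0.205, and Rgs10 and Rgs14 with 5 surrogate variables.

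The design text of the series names differential wiring, so each pair's r was compared between the lines, permuting line labels within sex and set. None of the 45 differences passed (3 had an unadjusted p under 0.05). The smallest p was for Rgs14 with Rgs17, with r = -0.098 in High Drinker mice against 0.492 in Low Drinker mice (permutation p = 0.00792, adjusted p = 0.287). Rgs8 with Rgs17 had r = 0.026 in High Drinker mice against 0.463 in Low Drinker mice (permutation p = 0.0127, adjusted p = 0.287), and Rgs2 with Rgs17 had r = 0.083 in High Drinker mice against 0.593 in Low Drinker mice (permutation p = 0.0386, adjusted p = 0.471). In all 3, r was lower in High Drinker animals. All 3 pairs hold Rgs17, and Rgs2, Rgs8 and Rgs14 were correlated with each other, so the 3 are not independent.

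The tested genes whose levels ran closest to each member over the 84 animals were found among 13261 genes. For Rgs2 they were Rarb, a retinoic acid receptor (r = 0.955), Plppr1 (r = 0.949) and Arpp21 (r = 0.944), the last also in the marker list. For Rgs8 they were Cacna2d3, a calcium channel subunit (r = 0.957), Bcr (r = 0.946) and Ric8b, a chaperone of the G protein alpha subunits Gnas and Gnal (r = 0.939). For Rgs10 the closest was Tmem158 (r = 0.953), for Rgs14 Rab40b (r = 0.880), for Rgs12 Nr4a2, a nuclear receptor (r = 0.828), and for Rgs17 Pkia, an inhibitor of protein kinase A (r = 0.918). Rgs5 ran closest to Adgrl4 (r = 0.801) with Flt1 also among its closest 3 (r = 0.779), both endothelial genes. Rgs7 ran closest to Mapk10 (r = 0.857), Rgs4 to Ttll11 (r = 0.826) and Rgs16 to Arl4c (r = 0.676), which was the lowest best match of the 10. These are given as descriptions, since all points share libraries and tissue.

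In the stretch of chromosome 1 from 143000001 to 176000000, drawn around the 6 members there, 48 of 237 tested genes were past the line threshold (30 higher and 18 lower in High Drinker animals), 20.3% beside 3.94% over all genes. The 6 members were not among the 48.

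Other genes of the pathway were counted from lists of their kinds. Of 11 other RGS genes 8 were tested and 0 passed between lines, while Rgs1, Rgs18 and Rgs21 were too low to test. Rgs3 had the smallest p of these (log2 fold change 0.095 ± 0.051, adjusted p = 0.317). Rgs9, the striatum-enriched R7 member that acts on dopamine receptor signalling, ran at 31.5, 258 and 816 CPM in High Drinker mice and 10.8, 241 and 658 CPM in Low Drinker animals (log2 fold change 0.19 ± 0.22, adjusted p = 0.711). The R7 genes split by the medium spiny neuron score, at r = 0.969 for Rgs9, -0.762 for Rgs7, -0.846 for Rgs6 and -0.137 for Rgs11, and their partner Gnb5 had r = 0.867. The value for Rgs11 missed the threshold (permutation adjusted p = 0.274). Of the RZ genes, Rgs20 had r = 0.836, Rgs17 0.251 and Rgs19 -0.532 (permutation adjusted p = 4.64e-05 for both Rgs20 and Rgs19). In sheet sets 1 and 2 r was 0.897 and 0.726 for Rgs20, and -0.714 and -0.192 for Rgs19. For Rgs17 it was 0.198 and 0.334 in these sets, but -0.04 in High Drinker animals and 0.525 in Low Drinker animals.

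Of 5 RGS partners, 13 alpha subunits and 16 effectors tested, 0 passed between lines, and their median log2 fold changes were 0.09, 0.03 and 0.05. Of 13 beta and gamma subunits, 2 were lower in High Drinker animals, where 2.08% of all genes tested were lower. Gng3 ran at 117, 188 and 242 CPM in High Drinker mice and 137.5, 211 and 314 CPM in Low Drinker animals (log2 fold change -0.18 ± 0.05, adjusted p = 0.0384). Gng13 ran at 12.65, 22.6 and 33.9 CPM in High Drinker mice and 16.5, 25.6 and 41.3 CPM in Low Drinker animals (log2 fold change -0.21 ± 0.065, adjusted p = 0.0459). Of 12 other G protein regulators 1 was higher in High Drinker animals, where 1.86% of all genes tested were higher. It was Arrb1, the arrestin that uncouples receptors from G proteins, at 335.5, 436.5 and 513 CPM in High Drinker animals, against 284, 412.5 and 494 CPM in Low Drinker animals (log2 fold change 0.12 ± 0.03, adjusted p = 0.0161). Of 27 receptors that couple to Gi, Go or Gq, 0 passed, with a median of 0.09 and 22 positive values, beside 8643 positive values among all 17071 genes. Of 12 activity-regulated genes 0 passed, with a median of -0.07 and 2 positive values. The lists hold genes that share cell types, so their members are not independent of each other.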

How the data were processed

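Per the labels' protocols, RNA from flash-frozen tissue was isolated with Trizol, amplified with an Ovation kit and sequenced single-end. The authors deposited raw counts per gene, 1 column per animal. Build mm10 and the tools STAR, featureCounts (Subread), FastQC and edgeR are named in the submitters' processing notes. How counting treated strand and multi-mapping reads is not given in the sources used. Columns were matched to animals by title.

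The 10 members and all gene lists were chosen with earlier results of these data known. Counts were tested with edgeR 4.0.16 in R 4.3.3 (quasi-likelihood, TMM, filterByExpr by line and sex, terms for sheet set, sex and line), with Benjamini-Hochberg adjustment over 17071 tested genes at 0.05. The sheet sets come from the numbers that end the titles, and that they are technical batches is an inference. Alternatives used DESeq2 1.42.0, limma 3.58.1 (voom) and sva 3.50.0 (5 surrogate variables). Variability was tested with limma on log2 CPM with a prior count of 2. Correlations used 100000 permutations over animals (Python 3.11.15, numpy 2.4.6, pandas 2.3.3). Animals carry separate numbers in the labels, and 0 pairs of libraries were identical. All 10 members are named, with up to 4 genes per list and genes among the 3 most like each member. The genes nearest to each member on the chromosome are not reported here. The tests were first run on simulated data with known changes.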

Additional observations from a re-analysis of the deposited data

How the results depend on the processing

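The count of RGS genes past the line threshold was 0 in 14 of the 18 alternatives run, among them another normalization, no filter, DESeq2, limma-voom, each larger sheet set alone and each sex alone. It was 1 without the set term (Rgs16), 1 with the medium spiny neuron score (Rgs10), 1 with 3 scores (Rgs10) and 2 with 5 surrogate variables (Rgs10, Rgs14). The count over all genes, 672, was 79 in sheet set 1 alone, 79 in sheet set 2 alone, 35 in females, 107 in males and 425 without the 5 libraries with the lowest correlations, all with fewer animals. It was 1053 with the medium spiny neuron score, 7.18% of all genes with 3 scores and 2448 with 5 surrogate variables, and the cause was not tested.

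Some log2 fold changes changed sign in some alternatives, all with an adjusted p above 0.6 there, and the cause was not tested. Of the genes that changed sign, Rgs10 was the farthest from 0 in the main model, at -0.117. It was at -0.273 in sheet set 1 alone (adjusted p = 0.423, edgeR). In sheet set 2 alone Rgs2 was at 0.129, Rgs4 at 0.041, Rgs7 at -0.037 and Rgs10 at 0.110. In males alone Rgs2 was at 0.142, Rgs7 at -0.029 and Rgs10 at 0.000, on the positive side. In females alone Rgs4 was at 0.059, Rgs8 at -0.027 and Rgs17 at -0.084. Rgs2 was at 0.001 with limma-voom and 0.045 without the set term. Rgs8 was at -0.047 in sheet set 1 alone, -0.017 with the medium spiny neuron score and -0.012 with 3 scores. Rgs17 was at -0.003 without the 5 libraries. Rgs5, Rgs12, Rgs14 and Rgs16 kept their sign in all 18. The fits with the medium spiny neuron score within sets and sexes are not among those 18. The sex, interaction, variability and wiring counts stayed at 0 in every alternative run. The count of correlated pairs, 24, was 8 with marker scores removed and between 17 and 26 otherwise. The alternatives without those 5 libraries, without Low Drinker replicate 2, with the thalamic score, and with the medium spiny neuron score within sets and sexes were added after the data were seen. No paired analysis was possible because the numbers in the titles name animals, not pairs.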
